A study of Mus musculus with 6 samples.

Results

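The 10 genes described here encode the Fos and Jun proteins that form the transcription factor AP-1 (Fos, Fosb, Fosl1, Fosl2, Jun, Junb and Jund) and 3 further genes that cells switch on early after a stimulus, Egr1, Atf3 and Ier3. Their probes were taken from the array by symbol, and 11 probes for all 10 genes were found among the 34741 genes and probes without a gene name on the array. The samples were 3 normal livers and 3 macroscopic liver tumors of male C3H/HeN mice aged 74 to 75 weeks, and both groups came from animals that served as untreated controls in a wider project and received standard diet and tap water. According to the study's methods, the tumors carried a mutation of Ha-ras, a gene of the family that drives the ERK kinase cascade, and C3H males develop such tumors spontaneously. Tumors are mixed tissue, so fewer cells of a type and less RNA per cell cannot be told apart. The labels name separate samples but do not say that each came from its own animal, so the p-values measure only the spread between these samples, and 3 arrays a group limit their precision. Between 44.7% and 48.9% of spots were well above background on an array, and no spot was saturated.

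A probe is called detected on an array where Feature Extraction, the scanner software, flagged it as well above background, and a gene was tested where its probe was detected on each array of either group. Of the 10 genes, 9 could be tested, and 6 of them were called higher in the tumors with limma at an adjusted p under 0.05, while none was called lower. These were Egr1, Fos, Ier3, Junb, Atf3 and Fosl2. Over all 18566 genes tested, 34.2% were called in either direction, 13.1% were called higher and 21.0% lower. Fos, Ier3 and Junb entered the test only through the tumors, being detected in 0, 0 and 1 of the normal livers, so the count of 6 describes the set and is no support for it. Among the 6 genes detected on all 6 arrays, tested together with the 16514 genes of that kind, 4 were called higher (Egr1, Atf3, Fosl2 and Jund), against 11.7% of those genes. Every tumor lay above every normal liver for 5 of these 6, against 16.3%, and for 8 of all 9, against 18.3% of all genes tested. The median log2 change of the 6 was 1.06, against -0.14 over the genes detected on all arrays. Each group was hybridised on a slide of its own, so a difference between slides and one between tissues cannot be told apart. Local background around the spots had an array median of 42 to 45 for normal livers and 22 to 23 for tumors, which bears most on dim probes such as those of Fos, Ier3 and Junb, and its part in their changes was not tested.

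As background, AP-1 is a dimer of basic leucine zipper proteins. Jun proteins pair with each other or with Fos proteins, whereas Fos proteins need a Jun partner to bind DNA. Immediate early genes need no new protein synthesis for their induction. ERK and the stress kinases act on factors already bound at their promoters, such as the serum response factor and its ternary complex partners, and the mRNAs that follow are short-lived. In the liver these genes are known for a brief burst after partial hepatectomy, injury, cytokines or the handling of tissue.

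All values below are expression values, meaning the signal of a probe divided by the 75th percentile of the signals on its array, and log2 changes are the tumor mean minus the normal mean of log2 values. Signals of different probes were not set against each other, because the brightness of a probe also depends on its sequence.

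Fos, the classical immediate early gene and the partner of Jun in AP-1, was not detected in any normal liver and was detected in each tumor. The values were 0.0588, 0.0525 and 0.0375 in normal livers 1, 2 and 3, and 0.955, 0.450 and 0.254 in tumors 1, 2 and 3. The groups did not overlap, and tumor 1 had the highest value. Because the normal livers give only a bound, the tumors exceeded them at least 3.68-fold. The adjusted p of 0.00417 is that of the limma fit to the measured values, not of this bound. The bound sets the mean of the tumors against, on each normal array, the higher of the probe's own signal and the lowest signal of any detected probe. Normexp background correction was run with an offset of 50 added to every signal, which shrinks the changes of dim probes. With it the log2 change was 0.87, smaller than that bound, and still called (limma, adjusted p = 0.0271).

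The Fos probe was spotted 10 times on each array, which shows the error between spots of the same array. It does not show the error between labellings or arrays, which was not measured. In the tumors all 10 spots were detected on each array, and the spots ranged from 0.845 to 1.08 in tumor 1, from 0.357 to 0.523 in tumor 2 and from 0.201 to 0.335 in tumor 3. The coefficient of variation between spots was 8.12%, 11.6% and 15.6%, and the spot ranges of the 3 tumors did not touch each other. In the normal livers none of the 10 spots was detected, and their coefficient of variation was 45.2% to 57.4%. The highest spot of a normal liver, 0.145 in normal liver 1, was below the lowest spot of a tumor. The differences in Fos between tumors were therefore larger than the error between spots of 1 array.

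**Figure D1:**
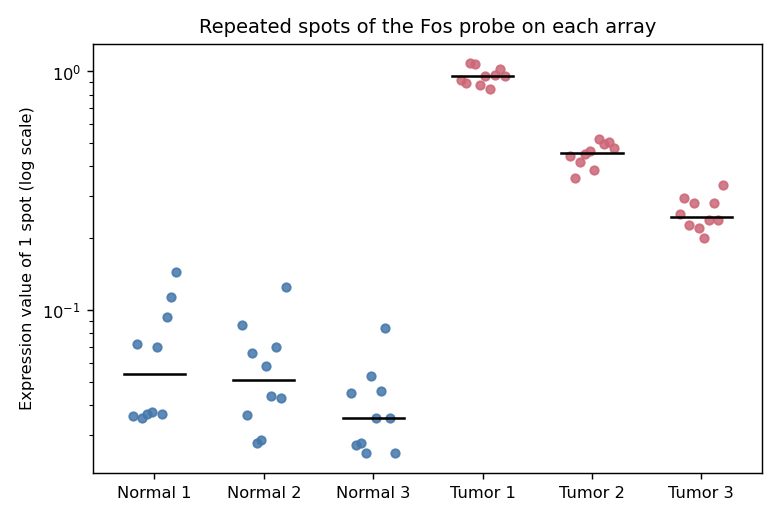
Expression value of each of the 10 spots of the Fos probe (vertical axis, log scale, signal divided by the array's 75th percentile) for the 3 normal livers (blue) and the 3 liver tumors (red), with the median of the spots as a black line. The medians were 0.955, 0.458 and 0.245 in tumors 1, 2 and 3, and all normal spots lay at 0.145 or below.

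The other Fos family members moved less or could not be measured. Fosb, whose protein pairs with Jun proteins like that of Fos, had values of 0.210, 0.249 and 0.169 in the normal livers and 0.231, 0.193 and 0.182 in the tumors. The groups overlapped, the log2 change was -0.04 with a 95% interval from -0.47 to 0.38, it was not called (limma, adjusted p = 0.873), and the interval as a fold ran from 0.723 to 1.30. The sign of this small difference turned with the scaling.

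Fosl1 encodes Fra-1, a Fos protein known from Ras-transformed cells. Its gene lies at chr19:5447698-5455938 (GRCm38.p6). Its probe was detected on none of the 6 arrays, with values of 0.0407 to 0.0882 in the normal livers and 0.0235 to 0.0791 in the tumors. No difference can be stated for it.

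Fosl2, which encodes Fra-2, gave a small change that its 2 probes did not share. The brighter probe had values of 0.848, 0.526 and 0.530 in the normal livers and 1.51, 0.988 and 0.957 in the tumors, and the groups did not overlap. Its log2 change was 0.87 ± 0.26 (SE), or 1.82-fold (limma, adjusted p = 0.0454). This call was lost on leaving out any 1 array except normal liver 1, and with normexp background correction. The other probe had 0.153, 0.239 and 0.216 against 0.191, 0.101 and 0.124, was detected in 2 normal livers and 1 tumor, and was not tested. The call of Fosl2 therefore rests on its brighter probe alone.

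Among the Jun genes, Junb had the largest fitted change. Junb, a Jun protein that is itself an early response gene, had values of 0.205, 0.125 and 0.112 in the normal livers, detected only in normal liver 1, and 0.838, 0.441 and 0.552 in the tumors. No normal liver reached any tumor, and the ratio between the highest and the lowest array was 1.83 in the normal livers and 1.90 in the tumors. Its log2 change was 2.05 ± 0.31 (SE), or 4.14-fold with a 95% interval from 2.46 to 6.95 (limma, adjusted p = 0.00515). Since 2 of the 3 normal values lay at background this fold is imprecise. With normexp background correction the log2 change was 0.89 (limma, adjusted p = 0.00501), below the 1.27 of Jun in that fit.

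Jun, the founding Jun protein and a substrate of the Jun N-terminal kinases, was bright in both tissues. Its values were 9.51, 3.75 and 4.93 in the normal livers and 22.6, 10.4 and 10.4 in the tumors. Each tumor was above each normal liver, but normal liver 1 and tumor 1 stood well above the other arrays of their groups. The log2 change of 1.26 ± 0.44 (SE), or 2.40-fold with a 95% interval from 1.16 to 4.98, was not called (limma, adjusted p = 0.0679). Without normal liver 1 the log2 change was 1.65 and was called (limma, adjusted p = 0.038).

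Jund, the Jun protein that most tissues express steadily, differed least among the Jun genes. Its values were 39.3, 31.4 and 32.2 in the normal livers and 51.4, 41.4 and 46.0 in the tumors, again without overlap. The log2 change was 0.43 ± 0.14 (SE), or 1.35-fold (limma, adjusted p = 0.0583), and it was called without normal liver 1 (log2 change 0.54, adjusted p = 0.0478).

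Egr1, a zinc finger factor that binds GC-rich promoters and is a standard readout of ERK activity, lies at chr18:34861207-34864956 (GRCm38.p6). Among the 9 tested genes, of which Fos and Ier3 have only a bound, Egr1 had the largest fitted change. Its values were 0.555, 1.17 and 2.10 in the normal livers and 36.4, 40.5 and 14.1 in the tumors, detected on all 6 arrays. The lowest tumor was far above the highest normal liver, although the normal livers themselves spanned 3.78-fold. The log2 change was 4.63 ± 0.58 (SE), or 24.8-fold with a 95% interval from 9.38 to 65.4 (limma, adjusted p = 0.00289). Only 111 of the 18566 genes tested, or 0.598%, had a larger fitted rise.

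Atf3, a stress-induced member of the ATF family that can pair with Jun proteins, had values of 0.233, 0.204 and 0.303 in the normal livers and 1.11, 0.417 and 2.10 in the tumors. The groups did not overlap, and the tumors spanned 5.04-fold with tumor 3 highest. The log2 change was 2.03 ± 0.56 (SE), or 4.07-fold with a 95% interval from 1.62 to 10.3 (limma, adjusted p = 0.0337). The call was lost on leaving out any 1 array except tumor 2, at log2 changes of 1.48 to 2.18, and without tumor 2 the log2 change was 2.65. With normexp background correction it was 1.06.

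Ier3, an early response gene whose product acts on cell survival and ERK signalling, was not detected in the normal livers, at 0.116, 0.0633 and 0.109. It was detected in all tumors, at 0.824, 0.310 and 0.560. The groups were apart, and the tumor mean exceeded the bound of the normal livers at least 4.03-fold. The adjusted p of 0.00594 is that of the limma fit to the measured values, not of this bound. With normexp background correction the log2 change was 0.89 (limma, adjusted p = 0.0111), smaller than that bound. The bound therefore holds only for the signals as processed without that correction.

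**Figure D2:**
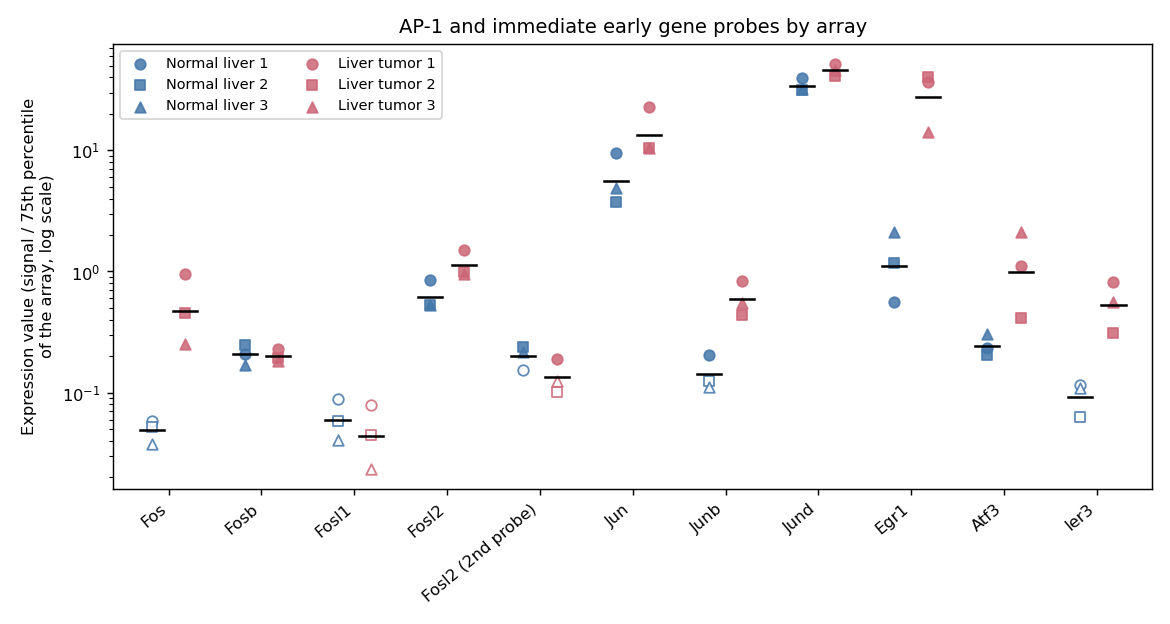
Expression value (vertical axis, log scale, signal divided by the array's 75th percentile) of each of the 11 probes on the 3 normal livers (blue) and 3 liver tumors (red), with the marker shape giving the replicate number, open markers for arrays without detection and black lines for the geometric means. Heights can be compared within a probe only, and every tumor lies above every normal liver for 8 of the 9 tested genes, the exception being Fosb.

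Within the tumors, the same sample was highest for most of these genes. Tumor 1 had the highest value of the 3 tumors for 7 of the 9 tested genes, the exceptions being Egr1, highest in tumor 2, and Atf3, highest in tumor 3. That count was 7 of 9 also with quantile normalization, spike-in scaling and normexp background correction. The share of all genes tested that were highest on a given array was not counted. A trait of these genes and one of the whole array of tumor 1 can therefore not be told apart. This array also had the highest values of the neutrophil genes S100a8 and S100a9 and, among the tumors, of the macrophage gene Marco. S100a8 stood at 3.37 in tumor 1 and at 0.912 and 0.732 in tumors 2 and 3, S100a9 at 12.9 against 4.51 and 2.80, and Marco at 14.4 against 2.17 and 1.56. These 3 genes are a selection from the neutrophil and macrophage markers. Among the tumors, most other markers of these kinds were also highest in tumor 1, but not all. Ly6g stood at 1.10 in tumor 1 and at 1.41 and 1.60 in tumors 2 and 3, Clec4f at 2.86 against 4.90 and 6.94, and Csf3r at 155 against 173 and 124. The part of these cell types in the order of the tumors was not tested. Among the 6 genes detected on all arrays, normal liver 1 was the highest normal liver for 3, but the lowest for Egr1. That count was 2 of 6 with spike-in scaling and 5 of 6 with normexp background correction, and normal liver 1 had the lowest 75th percentile of its group, 124 against 170 and 177.

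Several of these genes varied more between samples of 1 group than most genes did. The SD of the log2 value among the tumors was 1.18 for Atf3, 0.96 for Fos and 0.84 for Egr1, against a median of 0.18 over all genes tested, and 98.6%, 97.8% and 96.9% of genes had a smaller one. Among the normal livers it was 0.96 for Egr1 and 0.69 for Jun, against a median of 0.16, and 98.9% and 96.9% of genes had a smaller one. Jund and Fosb, by contrast, had tumor SDs of 0.16 and 0.18, at the middle of all genes.

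**Figure D3:**
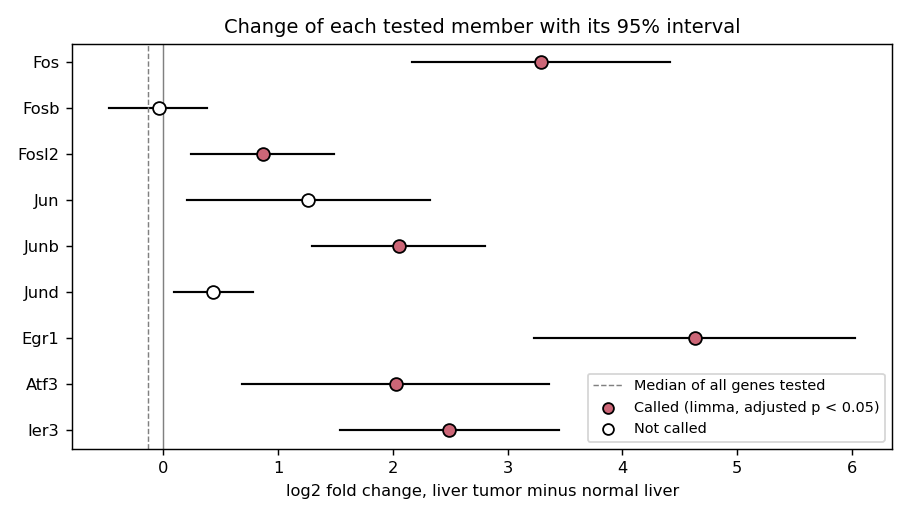
Log2 fold change of the 9 tested genes, tumor minus normal (horizontal axis), with the 95% interval of the limma fit as a line, filled points for genes called at an adjusted p under 0.05, a solid line at 0 and a dashed line at the median of all genes tested, -0.13. The points of Fos and Ier3 are fitted differences against normal livers without detection, and the interval of Fosb alone spans 0.

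In the RefSeq annotation of GRCm38.p6, Junb is at chr8:84976909-84978748 and Jund at chr8:70697739-70700616, on the same chromosome but far apart, while Fos is at chr12:85473890-85477274, Fosb at chr7:19302696-19310118, Fosl2 at chr5:32136472-32157840 and Jun at chr4:95049036-95052222. Atf3 is at chr1:191170296-191183333 and Ier3 at chr17:35821713-35822911.

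Promoter sequence from RefSeq was at hand for 8 of the 10 genes, not for Egr1 and Fosl1, as windows of 250 bases before and 50 bases after the annotated start. They were searched on both strands for the CArG box of the serum response factor, the cyclic AMP response element TGACGTCA, the AP-1 sites TGAGTCA and TGACTCA, the Egr1 sites GCGGGGGCG and GCGTGGGCG, and TATAAA. The CArG box was found in 0 of 8 windows (1.63% of all 32851 promoters), TGACGTCA in 0 (1.79%) and the AP-1 sites in 0 (5.2%). An Egr1 site was found in Fosl2 and Fosb (3.47% of all promoters) and TATAAA in Fos and Junb (13.6%). TGACGTCA with at most 1 changed base, a search added after the results were seen, was found in Fos, Jun and Atf3 (12.5% of all promoters). That search also takes in every exact TGACGTCA, of which these 8 windows hold none. The last 150 bases before the start are shown for Fos, Jun, Atf3 and Fosl2, which hold an Egr1 site or a sequence like TGACGTCA and whose window starts at the outer end of the gene, 5′ to 3′ on the strand of the gene, with every match in capitals.
Fos, chr12:85473740-85473889, plus strand: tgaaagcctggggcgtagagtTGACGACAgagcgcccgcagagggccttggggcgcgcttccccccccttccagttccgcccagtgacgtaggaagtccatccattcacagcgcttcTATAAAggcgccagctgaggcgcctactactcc
Jun, chr4:95052223-95052372, minus strand: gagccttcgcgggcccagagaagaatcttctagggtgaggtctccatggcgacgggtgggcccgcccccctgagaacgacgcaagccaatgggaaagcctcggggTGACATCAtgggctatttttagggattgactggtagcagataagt
Atf3, chr1:191183334-191183483, minus strand: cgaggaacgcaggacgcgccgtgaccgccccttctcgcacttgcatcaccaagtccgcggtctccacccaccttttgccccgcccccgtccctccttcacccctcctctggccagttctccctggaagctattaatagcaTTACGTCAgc
Fosl2, chr5:32136322-32136471, plus strand: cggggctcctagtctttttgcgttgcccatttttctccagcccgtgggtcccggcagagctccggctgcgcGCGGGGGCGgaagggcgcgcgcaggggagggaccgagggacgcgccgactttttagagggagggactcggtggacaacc

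Matches stood before genes that were called and before genes that were not. The Egr1 site begins 79 bases before the start of Fosl2, which was called higher, and 50 bases before the start used for Fosb, which was not called. That start lies 73 bases inside the annotated gene, so the Fosb match is within the gene and its sequence is not shown. The sequence like TGACGTCA begins 129 bases before the start of Fos, 10 before that of Atf3 and 45 before that of Jun, of which Jun was not called. TATAAA begins 33 bases before the start of Fos and at the annotated start of Junb. A match describes letters in these windows and shows no bound factor, and sites farther away were not searched.

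Other immediate early genes were measured beside these 10. Of 40 listed genes, 36 were tested, 15 were called higher and 3 lower, with a median log2 change of 0.52, or 0.41 with genes not detected in 1 group at their bound. That is 41.7% higher and 8.33% lower, against 13.1% and 21.0% of all genes tested. Btg2, an antiproliferative early gene, rose from 0.313 ± 0.0658 (SD, n = 3) to 5.73 ± 1.68 (log2 change 4.17, adjusted p = 0.000216). Maff, a small Maf protein of the leucine zipper class, rose from 0.322 ± 0.0134 to 2.63 ± 0.852 (log2 change 2.98). Nr4a1, an orphan nuclear receptor, rose from 0.798 ± 0.234 to 3.20 ± 1.73 (log2 change 1.92). Arc, best known from neurons, was detected in no normal liver and rose at least 1.33-fold. Its adjusted p of 0.00255 is that of the limma fit to the measured values, not of this bound.

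Not all early genes moved with them. Nfil3, a leucine zipper repressor, fell by 1.97 on the log2 scale (adjusted p = 0.0461), Cebpb, a liver-enriched leucine zipper activator, fell by 0.74 (adjusted p = 0.0422) and Klf2, a zinc finger factor of endothelial cells, fell by 0.57 (adjusted p = 0.0143). Some widely used early genes, chosen here after their values were seen, were not called. Dusp1, a phosphatase that switches off the kinases, had a log2 change of -0.10 ± 0.13 (SE, adjusted p = 0.572), Ccn1, a matricellular protein, 0.04 ± 0.19 (adjusted p = 0.903) and Myc -0.39 ± 0.41 (adjusted p = 0.509). Egr3, Egr4 and Nr4a3 were detected on no array. Without normal liver 2 or without normal liver 3, the calls in this list dropped from 18 to 11, of which 10 were higher.

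The other leucine zipper genes listed beside Fos and Jun stood near the shares over all genes. Whether their proteins pair with Fos or Jun was not measured. Of 18 tested, 2 were called higher (11.1%) and 4 lower (22.2%), against 13.1% and 21.0%, and the median log2 change was -0.29. Mafk rose from 1.47 ± 0.0491 (SD, n = 3) to 2.37 ± 0.0682 (log2 change 0.69, adjusted p = 0.00421), and the probe of Creb5 rose by the same log2 change. Crem, a cyclic AMP responsive factor, fell by 1.12 (adjusted p = 0.0049), Maf by 0.59 and Mafa by 0.43.

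Upstream kinases and serum response factors moved in both directions. Of 25 tested, 5 were called higher (20.0%) and 6 lower (24%), against 13.1% and 21.0% of all genes, with a median log2 change of 0.04. Mapk7, the kinase ERK5, rose from 1.62 ± 0.173 (SD, n = 3) to 3.54 ± 0.556 (log2 change 1.12, adjusted p = 0.00371). Rps6ka3, an ERK-activated kinase, rose by 0.99, Map3k1 by 0.74 and Mapk3, the kinase ERK1, by 0.50 on the log2 scale. Map2k6, which activates p38, fell by 1.33 (adjusted p = 0.0252), Mrtfb by 0.73, Map3k5 by 0.55 and Mapk9, a Jun N-terminal kinase, by 0.46. The mRNA of the serum response factor itself, Srf, had a log2 change of -0.05 ± 0.16 (SE) and was not called (adjusted p = 0.846). These calls depended on single arrays and on the scaling: 3 were left without normal liver 1 or normal liver 2, 5 without tumor 3, 6 without normal liver 3 or tumor 1, and 7 without tumor 2, and with spike-in scaling 4 were higher and 1 lower.

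Among 9 cofactors, 3 were called higher (33.3%) and 2 lower (22.2%), against 13.1% and 21.0% of all genes, with a median log2 change of -0.03. Crebbp, an acetyltransferase recruited by Fos and Jun, rose from 12.7 ± 2.27 (SD, n = 3) to 30.7 ± 6.48 (log2 change 1.27, adjusted p = 0.00538). Fbxw7, a ubiquitin ligase that targets Jun, rose by 0.97 and Nab1, a corepressor of Egr1, by 0.37. Cop1, a ubiquitin ligase of Jun, fell by 0.39. Leaving out arrays reduced the 5 calls to 1 without normal liver 3 or tumor 2, to 2 without normal liver 2 or tumor 1 and to 3 without tumor 3.

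Genes reported elsewhere as AP-1 targets were often not measurable. Of 30 listed, 20 were tested, 7 were called higher (35.0%) and 2 lower (10%), against 13.1% and 21.0% of all genes, and the median log2 change was 0.32. Ccnd1, the cyclin D1 gene, rose from 1.86 ± 0.466 (SD, n = 3) to 8.13 ± 1.55 (log2 change 2.14, adjusted p = 0.00173). Plaur, the urokinase receptor, rose by 1.87 and the chemokine Cxcl1 by 1.81 on the log2 scale.

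Other reported targets did not follow. Gclm, of glutathione synthesis, fell by 0.74 and Sqstm1, an autophagy adaptor, by 0.57, and both are also known Nrf2 targets. The matrix metalloproteinase genes Mmp2, Mmp3, Mmp9, Mmp10 and Mmp13, together with Plau, Il6, Ereg and Ptgs2, were detected on no array. Without normal liver 2 the 9 calls became 4, all of them higher.

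The ERK output genes, which are transcribed when the ERK cascade is active, had the highest median of the related lists. Of 12 tested, 8 were called higher (66.7%) and 1 lower (8.33%), against 13.1% and 21.0% of all genes, and the median log2 change was 1.07. Dusp5, a nuclear ERK phosphatase, was detected in no normal liver and stood at 0.434, 0.477 and 0.501 in the tumors, a rise of at least 3.62-fold. Its adjusted p of 4.21e-05 is that of the limma fit to the measured values, not of this bound. Spry1, a feedback inhibitor of receptor signalling, rose from 1.32 ± 0.217 (SD, n = 3) to 4.63 ± 1.84 (log2 change 1.76), and Dusp6, a cytoplasmic ERK phosphatase, from 17.4 ± 9.25 to 51.0 ± 5.96 (log2 change 1.69, adjusted p = 0.017). Ccnd1, described above, stands in this list too. Etv1, an Ets factor, fell by 1.01 (adjusted p = 0.0296). Without normal liver 2 or without tumor 2 the 9 calls became 5, all of them higher.

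Heat shock genes, which are also induced by stress and by the handling of tissue, were more often called lower than higher. The part of stress or handling in these changes, or in those of the early genes, was not tested. Of 13 tested, 1 was called higher and 6 lower, and the median log2 change was -0.57. The 6 are 46.2% of those tested, against 21.0% of all genes. Hspb1, a small heat shock protein, fell from 30.3 ± 5.53 (SD, n = 3) to 6.60 ± 3.71 (log2 change -2.41, adjusted p = 0.0154). Hsph1 fell by 1.48, Hspa1a, the stress-inducible Hsp70, by 1.48 and the mitochondrial chaperone Hspd1 by 0.70, while Hspa4l rose by 0.75. The 7 calls became 3 without tumor 2 and 4 without normal liver 1, normal liver 3, tumor 1 or tumor 3, and with spike-in scaling 1 was higher and 3 lower.

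**Figure D4:**
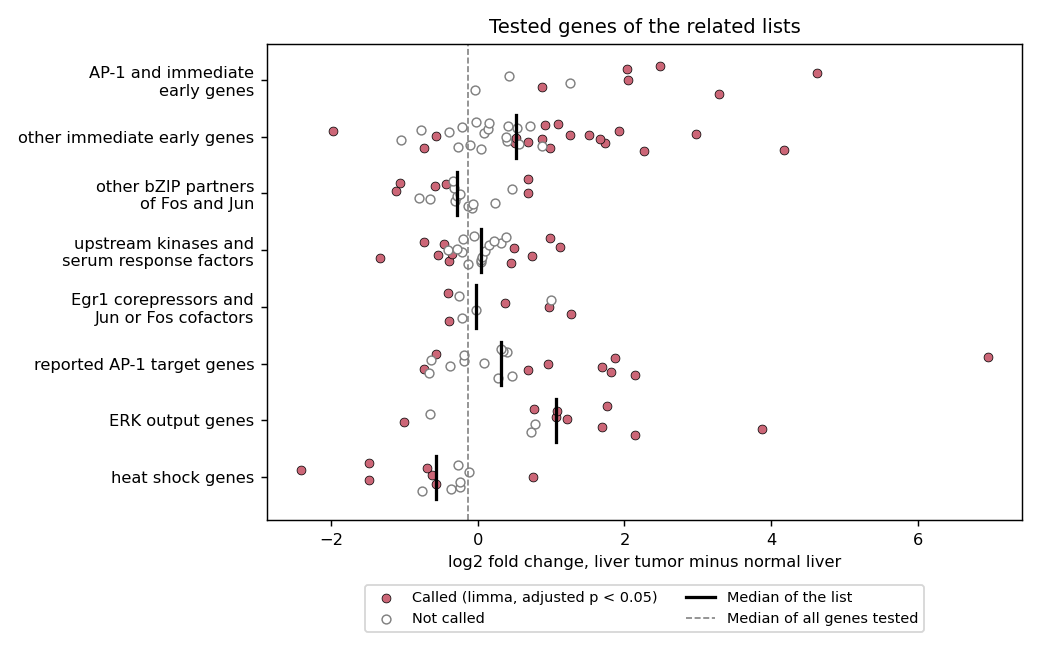
Log2 fold change, tumor minus normal (horizontal axis), of the tested genes of the 10-gene set and of 7 related lists, 1 point per gene, red for genes called by limma at an adjusted p under 0.05 and white for the others, with the median of each related list as a black bar and the median of all genes tested, -0.13, as a dashed line. Points of genes not detected in 1 group are fitted differences, and the medians of the 7 related lists run from -0.57 for the heat shock genes to 1.07 for the ERK output genes. No median is drawn for the 10-gene set.

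Cell type markers were read beside these values, with 13.1% of all genes tested called higher and 21.0% lower as the background of each count. All 10 hepatocyte markers were detected on all arrays, as the labelled tissue should give, with 1 called higher, 2 lower and a summed expression value of 9170 to 10000 in the normal livers and 8920 to 9390 in the tumors. Of 10 macrophage markers 7 were called lower and 0 higher, and their sum was 111 to 190 in the normal livers and 57.8 to 95 in the tumors. Of 10 markers of stellate cells and fibroblasts 5 were lower and 2, Col1a1 and Reln, higher, with sums of 90.9 to 107 and 31.1 to 51.7. These sums were mostly the Dcn probe, at 75.8 to 96.4 in the normal livers and 17.8 to 37.7 in the tumors. Of 10 endothelial markers 2 were lower and 1 higher, with sums of 109 to 123 and 84.4 to 94.5.

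Leukocytes other than macrophages were less well measured. Of 10 neutrophil markers 6 were tested and 0 called by limma, with sums of 151 to 172 and 133 to 185 that were mostly the Csf3r probe, at 141 to 159 and 124 to 173, and Mpo was detected on no array. Of 10 lymphocyte markers 5 were tested and 1, Cd4, was called higher, with sums of 66.4 to 70.3 and 141 to 245 that were mostly the Cd4 probe, at 59.5 ± 1.23 (SD, n = 3) and 184 ± 50.8, while Cd8a was detected on no array. Of 10 cholangiocyte markers 7 were tested and 1, Cldn7, was called higher, with sums of 3.31 to 4.30 and 3.40 to 13.4, and Muc1 was detected on no array. The part of these cell types in the changes of the 10 genes was not tested.

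The genes with the most similar pattern over the 6 arrays were looked up for Fos, Jun, Egr1 and Atf3 among 16476 other genes detected on all 6 arrays. For Fos the highest Pearson correlations were 0.9991 and 0.9989, both for probes that the array design names by position only, and 0.9983 for Ets1. For Jun they were 0.9952 for Ripor1, 0.9878 for a probe without a gene name and 0.9865 for Hap1. For Egr1 they were 0.9975 for Pin4, 0.9972 for Poglut2 and 0.9963 for Cklf, and for Atf3 0.9913 for C130026I21Rik, 0.9867 for a probe without a gene name and 0.9864 for Ap3m2. With 6 arrays in 2 groups and so many genes searched, high values are a description of these arrays. Fos was detected in no normal liver, so its pattern among those arrays is that of background signal.

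By the criteria of the study's methods, a group mean above 1.0 in either group, a ratio of means of at least 2 and an unadjusted p under 0.05 in the unpaired form of the methods' test, Egr1 alone of the 9 genes qualified as higher, against 4.66% of all genes tested. Its ratio of means was 23.8. In the paired form, which the methods also name, its unadjusted p was 0.0773 and it did not qualify. Fos, Ier3 and Junb, with ratios of 11.1, 5.88 and 4.14, had group means below 1.0, and Fos also missed the p. Atf3, with a ratio of 4.90, and Jun, with 2.38, missed the p.

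**Figure D5:**
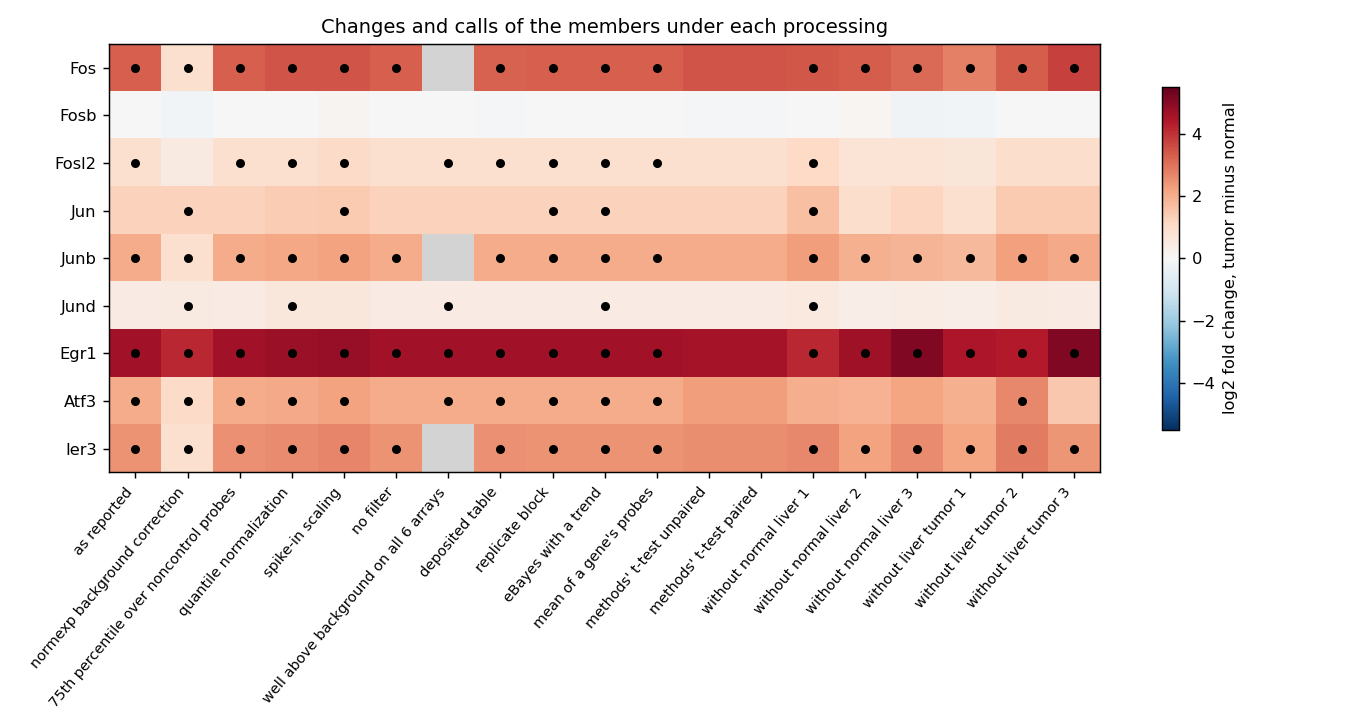
Log2 fold change, tumor minus normal (colour), of the 9 tested genes (rows) as reported and under 18 other ways of processing or leaving out an array (columns), with a black dot where the adjusted p was under 0.05 and grey where the gene was not tested. Egr1 had a dot in every column but the 2 of the methods' t-test, and Fosb in none.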

How the data were processed

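Total RNA of 3 normal livers and 3 liver tumors was labelled with 1 dye and hybridised to Agilent mouse arrays. The authors deposited the Feature Extraction output of each array (version 10.7.3.1 per the file headers, 12.0.3.1 per the submitters' processing notes), in which background has already been subtracted from the processed signal intensity, and a table of the ratio of that signal to the 75th percentile of the array, taken over every spot. From the deposited intensities, log2 values minus the log2 of that percentile were computed, control and outlier spots were left out, and spots of a probe were averaged. Of 55681 probes, the 24898 detected in each normal liver or in each tumor (most spots flagged well above background) entered a two-sided limma fit (limma 3.58.1, R 4.3.3), and p-values were adjusted over all of them by Benjamini-Hochberg with a threshold of 0.05. A gene stands by its brightest tested probe. Probe names were updated through RefSeq annotation of GRCm38.p6 for 27235 probes by accession, 3581 by symbol and 565 by synonym. Python 3.11.15 made tables and figures.

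The members, lists and motifs were chosen with earlier results of these data known. From each list the text names up to 4 called genes with the largest change in each direction, and for 4 members the 3 genes with the highest correlation. The values of 3 genes that this rule names are not reported here, though they are counted in their lists. In a simulated comparison over 24886 probes, 78 were changed by 2-fold, 64 by 4-fold and 58 by 8-fold, with independent noise. The fit called 43.6%, 81.2% and 96.6% of them. In the data themselves 34.2% of genes were called, a far larger share, so these rates do not carry over to them.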

Additional observations from a re-analysis of the deposited data

How the results depend on the processing

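Under 18 alternatives, Egr1, Fos, Ier3 and Junb were called in every limma fit that tested them, while Fosl2 was called in 9, Jun in 5, Jund in 5 and Fosb in 0 of 18, and Atf3 in 10, lost with no filter among others. No alternative turned the direction of a gene other than Fosb, whose log2 change was 0.02 with quantile normalization, 0.13 with spike-in scaling, 0.09 without normal liver 2 and 0.03 without tumor 3, in a range of -0.19 to 0.09 when 1 array was left out. Normexp background correction, whose offset of 50 lifts dim signals, reduced the log2 change of Fos to 0.87, of Ier3 to 0.89, of Junb to 0.89 and of Atf3 to 1.06, all still called. A filter that asks for all 6 arrays left Fos, Ier3 and Junb untested. The number of members called was 4 to 8 in the limma fits. With Student's t-test and Benjamini-Hochberg adjustment it was 0, unpaired or paired, with 4 and 3 members at an unadjusted p under 0.05.

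Over all genes tested, 6346 were called, 38.5% of them higher. The count was 4001 with spike-in scaling (62.1% higher), 3501 with no filter, 4135 with the unpaired t-test and 0 with the paired one (5767 at an unadjusted p under 0.05), and 3872 (normal liver 2 left out) to 5533 without 1 array. Scaling moved the median log2 change of all probes from -0.13 to -0.05 with quantile normalization and 0.05 with spike-in controls. In the lists, other immediate early genes had 8 calls with no filter, 8 with the unpaired t-test and 11 to 13 without 1 array. The other leucine zipper genes had 2 with no filter. Upstream factors had 7 with quantile normalization, 5 with spike-in scaling, 2 with no filter, 5 with the unpaired t-test and 3 to 7 without 1 array. Cofactors had 3 with quantile normalization and with spike-in scaling, 1 with no filter and 1 to 4 without 1 array. AP-1 targets had 4 with no filter, 5 with the unpaired t-test and 4 to 9 without 1 array. ERK output genes had 5 with no filter, 5 with the unpaired t-test and 5 to 8 without 1 array. Heat shock genes had 4 with quantile normalization, 4 with spike-in scaling, 3 with no filter, 4 with the unpaired t-test and 3 to 6 without 1 array. The paired t-test called 0 in each list. The cause of these differences was not tested.

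With the replicate number as a block, 5417 genes and 7 members were called, Jun joining them (adjusted p = 0.00793), 6 upstream factors and 3 cofactors. The numbers are not known to pair the samples. Deviations of same-numbered arrays correlated at 0.0506 to 0.132 and those of differently numbered arrays at -0.139 to 0.055, which does not settle it. Signal over background limits Fosl1, which was never measured, and Fos and Ier3, which have only a bound in normal liver.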
